A study of Mus musculus with 6 samples.

Results

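The genes described here encode 10 enzymes that cut or trim DNA and RNA, or that limit the nucleotides DNA is made from. They are Dnase2a, Dnase1l1, Dnase1l3, Trex1, Samhd1, Pld3, Pld4, Rnaset2a, Rnaset2b and Endod1. They were chosen by gene name in the deposited table, which held 18039 genes. Of the 10 genes, 9 were found there, 8 had enough reads to be tested, and Dnase1l3 did not. Trex1 was not analysed here. The tissue source was mouse bone marrow, whose cells were grown for 7 days with 20 ng/mL M-CSF, a growth factor of the macrophage lineage, to give bone marrow-derived macrophages. There were 2 genotypes, KAT7KO and Ctrl, with 3 libraries of paired-end bulk RNA-seq each. KAT7 is an enzyme that acetylates lysines of histones. The labels do not give how or in which cells Kat7 was removed, the strain, the age of the mice, or whether replicates are from separate animals. The titles call the 3 libraries of each genotype biological replicates, and the p-values set the genotype difference against how these libraries vary.

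Macrophages take up dying cells, microbes and cast-off chromatin, and must break down the DNA and RNA that come with them. In the lysosome this is done by acid nucleases and exonucleases, and what escapes them can reach Toll-like receptors in endosomes or DNA and RNA sensors in the cytosol, both of which switch on type I interferon. Loss of several of these enzymes is known to cause interferon-driven inflammation in mice or people. The same kind of enzyme also clears extracellular traps, the DNA fibres that macrophages and neutrophils release and that the title of the series concerns.

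Among the 8 tested nuclease genes, the lysosomal DNase gene Dnase2a and the endonuclease-domain gene Endod1 were lower in KAT7KO than in Ctrl macrophages. Dnase2a stood at 80.3% of its Ctrl level and Endod1 at 68.6%. The lysosomal exonuclease gene Pld3, by far the most abundant of the group, was higher, at 114% of Ctrl. The other 5 did not pass the test. A gene was called where its p-value from edgeR's quasi-likelihood test, adjusted over the 12483 genes tested by the Benjamini-Hochberg method, was under 0.05. The share of members lower in KAT7KO, 2 of 8, stood beside 13.2% of all tested genes, and the share higher, 1 of 8, beside 10.7%. In either direction 3 of 8 members were called, beside 23.9% of all tested genes. The ranges of KAT7KO and Ctrl libraries were apart for 4 of the 8 members, beside 41.0% of all tested genes. With so few genes, these shares do not set the group apart from the rest of the transcriptome. The median log2 fold change, KAT7KO over Ctrl, was -0.11 for the 8 members and 0.00 for all tested genes. The median absolute log2 fold change was 0.157 for the members and 0.169 for all tested genes.

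The library totals lay between 19906726 and 20660090 counts, at which 3 counts in a library are 0.145 to 0.152 CPM, the counts relative to library size after scaling by the TMM method. Kat7 itself had 41.4, 42.2 and 38.2 CPM in KAT7KO libraries, against 73.2, 70.3 and 69.0 CPM in Ctrl libraries, and was 57.3% of Ctrl (edgeR adjusted p = 9.63e-07). This is a total over the gene, and which part of it was deleted is not given. Of the Ctrl libraries, replicate 1 stood apart: its mean chi-square per gene was 11.5 against replicate 2 and 20.2 against replicate 3, where replicates 2 and 3 gave 3.77 and the KAT7KO pairs 2.68 to 3.47. Results are therefore also given without it. The p-values of those fits rest on the closer libraries that remain, so smaller ones are not read as stronger evidence.

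All 12 macrophage markers on the list were measured and 2 of them, Lyz2 and Itgam, fell. The summed level of the list was 27431 to 28103 CPM in KAT7KO libraries and 32739 to 42118 CPM in Ctrl libraries. Lyz2 carried this gap, at a mean of 17981 CPM in KAT7KO and 28853 CPM in Ctrl. The other 11 markers, summed without it after the values were seen, gave 9716 to 9844 CPM in KAT7KO and 9343 to 9852 CPM in Ctrl, which overlap. Of 7 stromal markers 3 fell, with a summed 707 to 723 CPM in KAT7KO and 775 to 990 CPM in Ctrl. Neutrophil markers summed to 114 to 121 CPM in KAT7KO and 90.8 to 94.0 CPM in Ctrl, with Camp and Ngp under 3 counts in every library and 2 of 3 tested markers, S100a8 and Csf3r, higher. B cell markers summed to 8.06 to 9.08 CPM in KAT7KO and 4.11 to 5.42 CPM in Ctrl, and dendritic cell markers to 605 to 608 CPM in KAT7KO and 619 to 646 CPM in Ctrl. Immediate-early genes, which respond to handling, summed to 859 to 893 CPM in KAT7KO and 974 to 996 CPM in Ctrl, and mitochondrial transcripts to 14164 to 14246 CPM in KAT7KO and 13713 to 15494 CPM in Ctrl. The part of these shifts in the nuclease results was not tested. In bulk RNA, fewer cells of a type and less RNA per cell cannot be told apart.

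**Figure D1:**
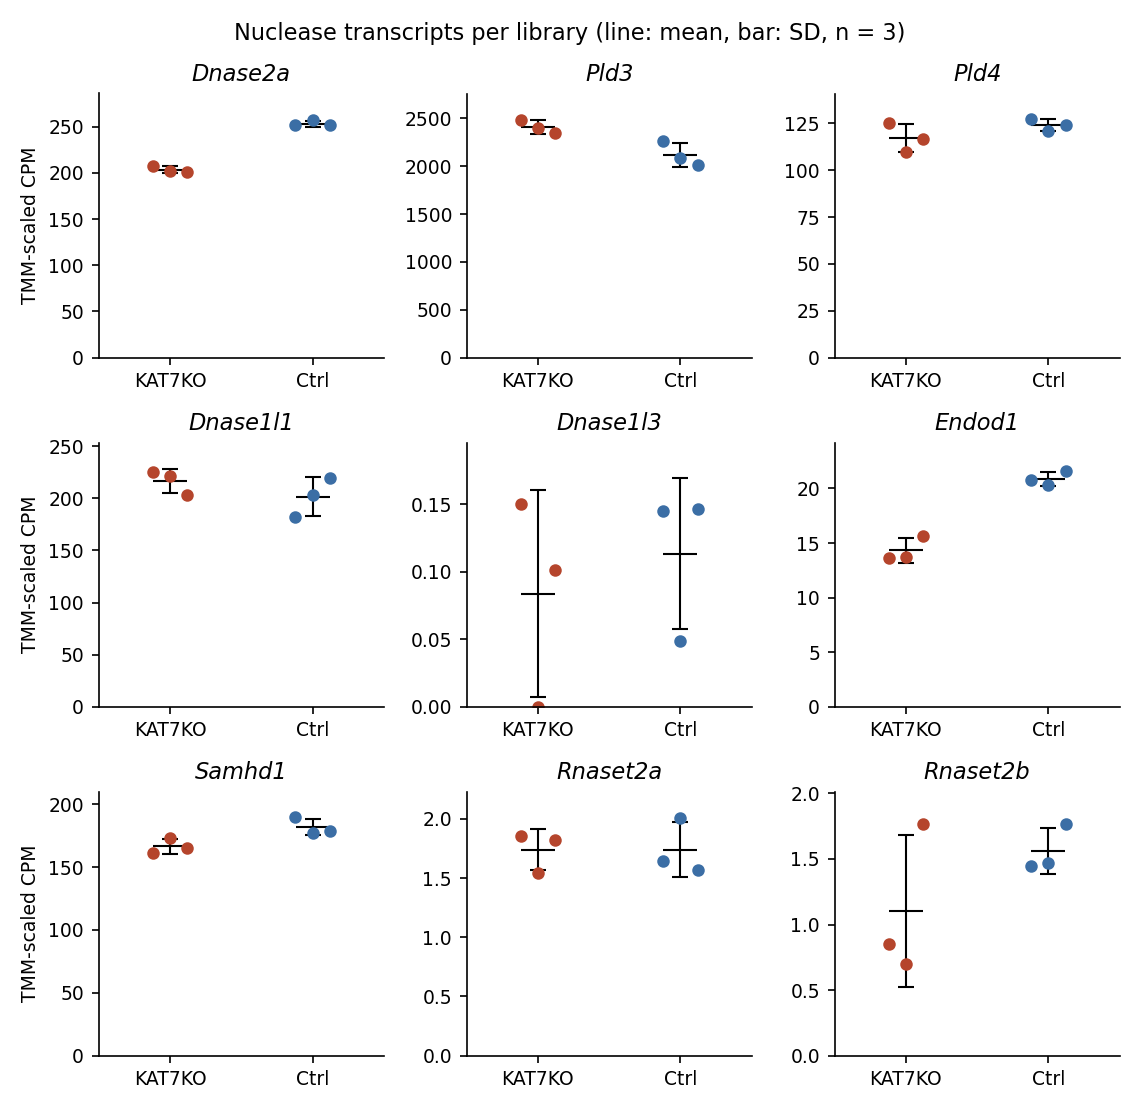
TMM-scaled CPM of the 9 nuclease genes in each library, with KAT7KO on the left and Ctrl on the right of each panel; points are libraries, the line is the mean and the bar the SD (n = 3). Dnase2a, Endod1 and Samhd1 lie lower and Pld3 lies higher in KAT7KO with no overlap, whereas the other genes overlap.

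Dnase2a (ENSMUSG00000003812) encodes DNase II, the acid endonuclease that digests the DNA of engulfed cells and expelled nuclei in lysosomes. It had 207, 202 and 201 CPM in KAT7KO libraries, against 251, 257 and 251 CPM in Ctrl libraries. Every KAT7KO library lay below every Ctrl library, and the gap between the genotypes was many times the spread within either. The means were 203 ± 3.55 CPM in KAT7KO and 253 ± 3.23 CPM in Ctrl (SD, n = 3 each). The log2 fold change was -0.32 (SE 0.05, 95% interval -0.41 to -0.22, edgeR adjusted p = 0.00024), a level of 75.1% to 86.0% of Ctrl. Leaving out any 1 library kept the log2 fold change between -0.33 and -0.30 and the call, and without Ctrl replicate 1 it was -0.32 (edgeR adjusted p = 3.48e-10). A test for a change of more than 1.2-fold did not call it (edgeR glmTreat adjusted p = 0.311). The authors' deposited table gives Dnase2a a log2 fold change of -0.31 and an adjusted p of 7.19e-07.

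Pld3 (ENSMUSG00000003363) encodes a lysosomal exonuclease that trims single-stranded DNA and RNA and so acts on the ligands of the nucleic acid receptors in endosomes. It had 2484.5, 2399 and 2344 CPM in KAT7KO libraries, against 2259, 2084 and 2014 CPM in Ctrl libraries. The lowest KAT7KO library exceeded the highest Ctrl library, Ctrl replicate 1, by less than the range of either genotype. The means were 2409 ± 70.7 CPM in KAT7KO and 2119 ± 126 CPM in Ctrl (SD, n = 3 each). The log2 fold change was 0.19 (SE 0.05, 95% interval 0.07 to 0.30, edgeR adjusted p = 0.0184), which is 105% to 123% of Ctrl. The call depended on which libraries were used. It was lost without Ctrl replicate 2 (edgeR adjusted p = 0.0973) and without KAT7KO replicate 1, 2 or 3 (edgeR adjusted p = 0.118, 0.0868 and 0.0571). Without Ctrl replicate 1, which stood apart from the other Ctrl libraries, the log2 fold change was 0.23 (edgeR adjusted p = 2.82e-09). This smaller p-value rests on the closer libraries that remain. Leaving out Ctrl replicate 3 gave 0.15 (edgeR adjusted p = 0.0354). The authors' deposited table gives Pld3 a log2 fold change of 0.19 and an adjusted p of 0.00889.

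Endod1 (ENSMUSG00000037419) encodes a protein with a DNA/RNA endonuclease domain whose role in macrophages is less well defined. It had 13.6, 13.7 and 15.6 CPM in KAT7KO libraries, against 20.7, 20.3 and 21.6 CPM in Ctrl libraries, from 272, 276 and 309 counts in KAT7KO and 429, 416 and 441 counts in Ctrl. Every KAT7KO library lay below every Ctrl library, with KAT7KO replicate 3 the nearest to Ctrl. The means were 14.3 ± 1.12 CPM in KAT7KO and 20.9 ± 0.649 CPM in Ctrl (SD, n = 3 each). The log2 fold change was -0.54 (SE 0.09, 95% interval -0.73 to -0.35, edgeR adjusted p = 0.000582), a level of 60.2% to 78.2% of Ctrl. Endod1 was the member furthest from its Ctrl level among those called, and the one that passed the test for a change of more than 1.2-fold (edgeR glmTreat adjusted p = 0.0159). Leaving out any 1 library kept the call, with log2 fold changes between -0.61 and -0.51, and without Ctrl replicate 1 it was -0.55 (edgeR adjusted p = 5.70e-06). The authors' deposited table gives Endod1 a log2 fold change of -0.54 and an adjusted p of 0.000101.

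**Figure D2:**
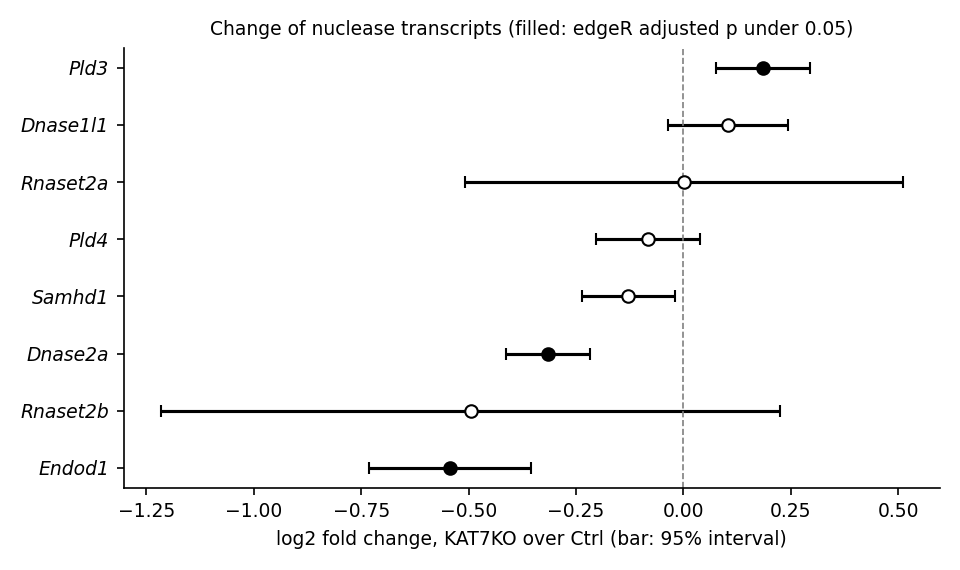
Log2 fold change, KAT7KO over Ctrl, of the 8 tested nuclease genes, with the 95% interval as a bar; filled points have an edgeR adjusted p under 0.05. Dnase2a and Endod1 lie left of 0 and Pld3 right of it, and the widest intervals belong to Rnaset2a and Rnaset2b.

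The upstream sequences of Dnase2a and Pld3 are shown because these lysosomal genes moved in opposite directions and have an entry in the RefSeq promoter table. Each is the 250 bases before the RefSeq start of the gene, on the strand of the gene, in the GRCm38.p6 build, which is not the build of the deposited counts (GRCm39). Dnase2a lies at chr8:84908505-84908754 on the plus strand, and Pld3 at chr7:27553219-27553468 on the minus strand. Capitals mark a match to GAAANNGAA, a core of the interferon-stimulated response element.
Dnase2a: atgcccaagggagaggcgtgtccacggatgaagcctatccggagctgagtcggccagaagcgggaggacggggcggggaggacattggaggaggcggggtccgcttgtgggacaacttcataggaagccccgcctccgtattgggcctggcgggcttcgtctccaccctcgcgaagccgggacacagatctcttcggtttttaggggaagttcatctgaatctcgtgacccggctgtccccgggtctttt
Pld3: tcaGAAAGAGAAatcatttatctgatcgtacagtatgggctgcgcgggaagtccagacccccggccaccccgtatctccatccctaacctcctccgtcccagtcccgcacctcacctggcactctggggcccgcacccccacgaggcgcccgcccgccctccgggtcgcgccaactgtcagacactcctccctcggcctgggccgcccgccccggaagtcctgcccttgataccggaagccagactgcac
Of the 9 members in the table, 7 had a promoter entry, in 9 windows of 250 bases before to 50 after a start. Both strands were searched for 3 motifs: GAAANNGAA, the CLEAR E-box core TCACGTGA found at lysosomal genes, and GAGGAAGT, bound by the macrophage factor PU.1. The interferon core matched 2 of the 9 windows, against 8.56% of all 32851 promoters of this length. In the Pld3 window the match began 247 bases before the start. The other match was in the Dnase1l1 window at chrX:74282284-74282583, whereas the second Dnase1l1 window, at chrX:74281577-74281876, had 0 matches. TCACGTGA matched 0 of the 9 windows and 0.974% of all promoters. GAGGAAGT matched the Pld4 window and 3.20% of all promoters. The Dnase2a window held none of these motifs, and its GC content, 61.7% over 300 bases, was like the 65.3% of Pld3. A match describes the letters only.

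Pld4 (ENSMUSG00000052160), which encodes a relative of PLD3 with the same kind of lysosomal exonuclease activity, did not pass the test. It had 125, 110 and 117 CPM in KAT7KO libraries, against 127, 121 and 124 CPM in Ctrl libraries. The ranges of the genotypes overlapped through KAT7KO replicate 1, the highest of its genotype. Its log2 fold change was -0.08 (95% interval -0.20 to 0.04, edgeR adjusted p = 0.310), so the data allow a level from 86.8% to 103% of Ctrl.

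Samhd1 (ENSMUSG00000027639) encodes the enzyme that splits deoxynucleoside triphosphates in macrophages, which starves retroviruses of the building blocks of DNA. It had 162, 173 and 165 CPM in KAT7KO libraries, against 189.5, 177 and 179 CPM in Ctrl libraries. The genotypes did not overlap, although KAT7KO replicate 2 and Ctrl replicate 2 lay close together. Samhd1 had a log2 fold change of -0.13 (95% interval -0.24 to -0.02) and the edgeR adjusted p, 0.0811, missed the threshold. It passed where the test was limited to genes with at least 5 CPM in 3 libraries (edgeR adjusted p = 0.0464). Without Ctrl replicate 1, the highest library, the log2 fold change was -0.10 (edgeR adjusted p = 0.0565).

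Of the DNase I family, Dnase1l1 (ENSMUSG00000019088), whose product is anchored at the cell surface, had 225, 221 and 203 CPM in KAT7KO libraries, against 183, 203 and 219 CPM in Ctrl libraries. The genotypes overlapped, and the Ctrl libraries were the more spread, with Ctrl replicate 1 the lowest. Dnase1l1 had a log2 fold change of 0.10 (95% interval -0.04 to 0.24, edgeR adjusted p = 0.268), a level of 97.6% to 118% of Ctrl. Leaving out Ctrl replicate 3 made it a call (log2 fold change 0.17, edgeR adjusted p = 0.0450), and leaving out Ctrl replicate 1 brought the log2 fold change to 0.04 (edgeR adjusted p = 0.574). Dnase1l3 (ENSMUSG00000025279), the secreted DNase that digests chromatin on microparticles and extracellular traps, had 3, 0 and 2 counts in KAT7KO libraries, against 3, 1 and 3 counts in Ctrl libraries. Both genotypes were at or under 3 counts in every library, so no fold change is given, and a difference was not detectable at this depth.

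**Figure D3:**
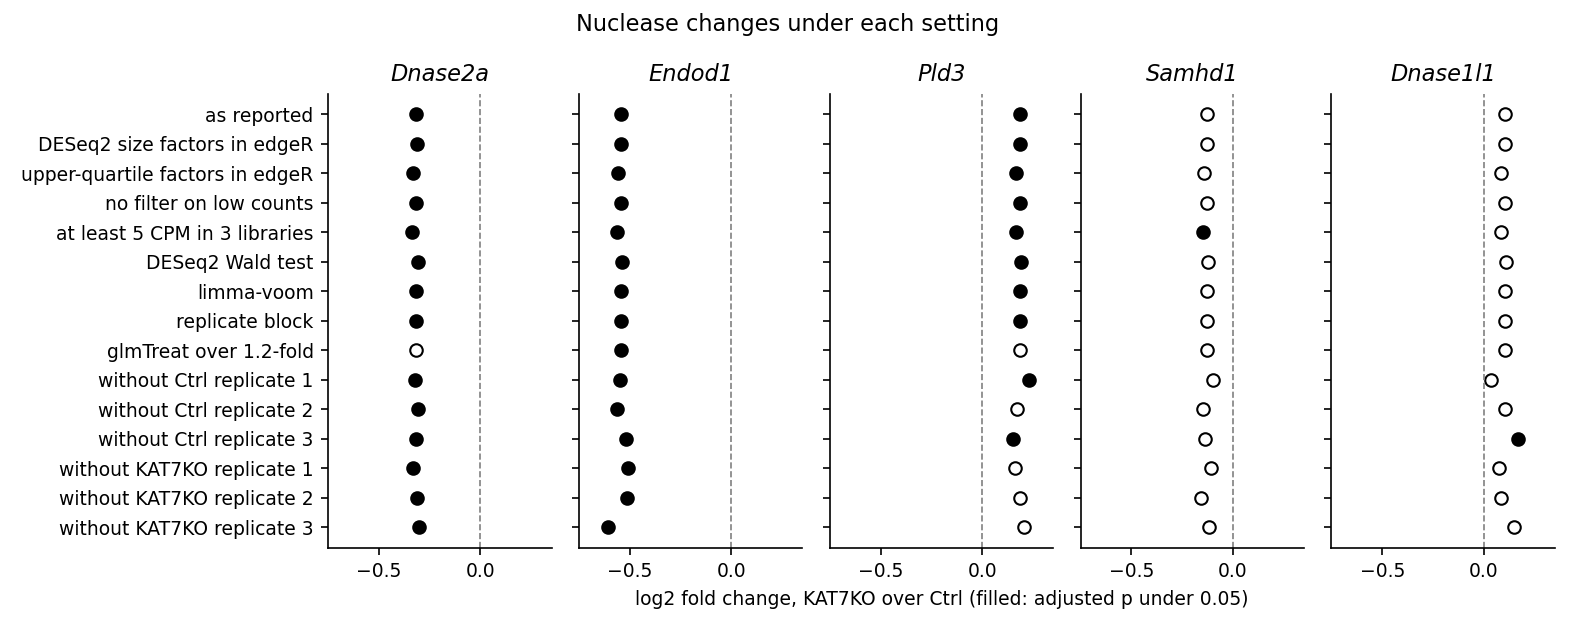
Log2 fold change, KAT7KO over Ctrl, of 5 nuclease genes as reported and under each other setting, filled where the adjusted p was under 0.05. Endod1 is filled throughout, Dnase2a in all settings but the test over 1.2-fold, and Pld3 loses its call in 5 settings.

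Rnaset2a (ENSMUSG00000095687) and Rnaset2b (ENSMUSG00000094724) are 2 mouse copies, on chromosome 17, of the gene for the lysosomal acid RNase T2. Their coding sequences, 777 bases each in the Rnaset2a-201 and Rnaset2b-201 transcripts of GENCODE M21, had 0 differences. The first 60 coding bases, in lower case because no base differs, illustrate this identity.
Rnaset2a: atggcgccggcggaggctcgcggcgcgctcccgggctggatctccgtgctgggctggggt
Rnaset2b: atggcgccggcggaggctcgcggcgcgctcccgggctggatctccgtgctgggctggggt
Over whole transcripts, 50.5% of the 150-base windows of Rnaset2a and 46.8% of those of Rnaset2b were also found in the other gene. How reads that match both were counted is not given in the sources used here, so both the level of each copy and the split of counts between them are uncertain.

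Rnaset2a had 37, 31 and 36 counts in KAT7KO libraries, against 34, 41 and 32 counts in Ctrl libraries. Its log2 fold change was 0.00, with a 95% interval of -0.51 to 0.51 (edgeR adjusted p = 0.998), which allows 70.3% to 142% of Ctrl. This value lay at 0 and changed sign in 6 of 14 other settings. Rnaset2b had 17, 14 and 35 counts in KAT7KO libraries, against 30, 30 and 36 counts in Ctrl libraries. In counts, KAT7KO replicate 3 lay within the Ctrl range and the other KAT7KO libraries below it. After scaling, KAT7KO replicate 3, at 1.769 CPM, was just above the highest Ctrl library, at 1.763 CPM. The log2 fold change was -0.50 (95% interval -1.22 to 0.23, edgeR adjusted p = 0.310), and without KAT7KO replicate 3 it was -1.0 (edgeR adjusted p = 0.0659). Summed over both copies there were 54, 45 and 71 counts in KAT7KO libraries, against 64, 71 and 68 counts in Ctrl libraries. The sum overlapped between genotypes, with a log2 fold change of -0.21 (SE 0.20, 95% interval -0.65 to 0.22, edgeR adjusted p = 0.480).

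Levels of different genes were compared on the authors' FPKM, which corrects for gene length as well as depth. The order thus rests on the lengths used, which the values imply to be 5389 bases for Dnase2a and 2121 bases for Dnase1l1. In CPM, with no length, Dnase2a had means of 203 in KAT7KO and 253 in Ctrl, and Dnase1l1 217 and 202. Whether these lengths fit the transcripts present was not tested. Pld3 was first, at a mean of 774 FPKM over the 6 libraries (range 681 to 843), 7.86 times the level of Dnase1l1, which had 98.5 FPKM (88.7 to 105). Dnase2a followed at 42.4 FPKM (37.0 to 48.1), then Pld4 at 34.8 FPKM (31.5 to 37.9) and Samhd1 at 19.0 FPKM (17.5 to 21.3). The transcripts of lysosomal enzymes were spread over the order. Pld3 was at place 1, Dnase2a at 3, Pld4 at 4, Rnaset2a at 7 and Rnaset2b at 8. Endod1 had 3.79 FPKM (2.91 to 4.60), Rnaset2a 0.520 FPKM (0.458 to 0.598) and Rnaset2b 0.299 FPKM (0.155 to 0.395). Dnase1l3 was last at 0.0192 FPKM (0 to 0.0290). Within KAT7KO and within Ctrl, neighbours in this order did not overlap. Dnase2a and Pld4 were the closest neighbours, at 1.22-fold, and overlapped only across genotypes: Dnase2a in KAT7KO, 37.0 to 38.2 FPKM, lay near Pld4 in Ctrl, 34.9 to 37.9 FPKM. The levels of Rnaset2a and Rnaset2b, and their place in the order, depend on how reads shared by the copies were counted, which is not known.

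**Figure D4:**
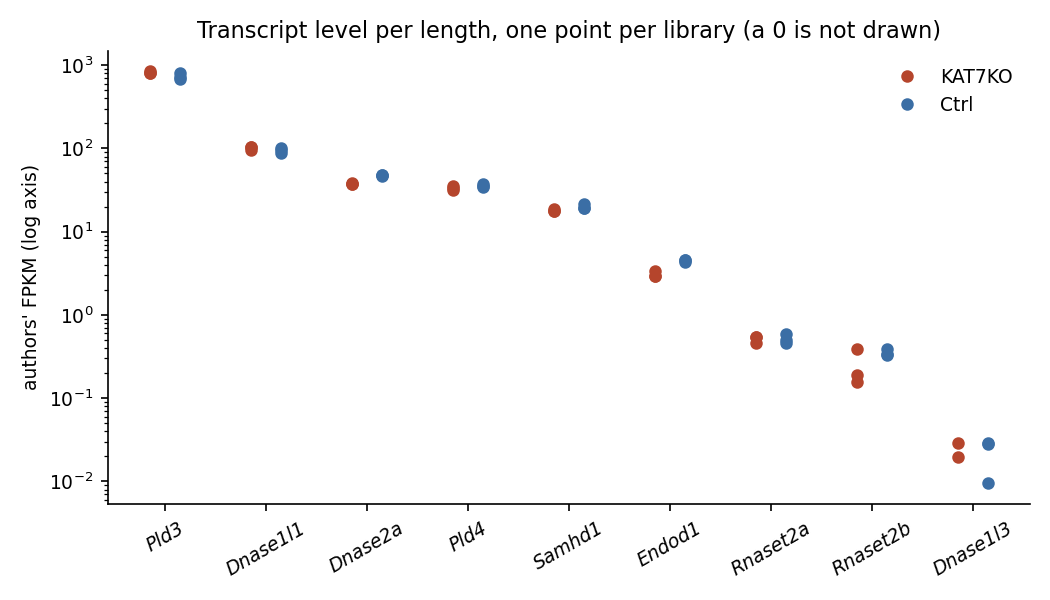
Authors' FPKM of the 9 nuclease genes on a log axis, 1 point per library, KAT7KO to the left of Ctrl and genes in order of their mean. The levels run from 774 FPKM for Pld3 to 0.0192 FPKM for Dnase1l3, whose value of 0 in KAT7KO replicate 2 cannot be drawn.

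The genes nearest to Dnase2a in pattern were sought among 9346 genes with a mean of at least 5 CPM. Likeness was the root mean square difference, over the 6 libraries, of log2(CPM + 1) values centred per gene. Tmem106a was nearest, at 0.0176, with Plin2, which coats lipid droplets, at 0.0189 and Rgl1 at 0.0231. Their log2 fold changes were -0.30, -0.30 and -0.34, beside -0.32 for Dnase2a. These genes were picked for likeness over the same libraries, so near fold changes follow from the choice.

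The next lists hold other genes of DNA and RNA degradation, not all of which encode nucleases. They and each list after them are read beside the 23.9% of all tested genes called in either direction. By direction these were 10.7% higher and 13.2% lower. For these and the following lists, the first value in parentheses after a gene is its log2 fold change, KAT7KO over Ctrl. Of 22 other genes of DNA degradation tested, 1 rose and 1 fell, with a median log2 fold change of 0.10. They were Mgme1, a mitochondrial exonuclease (log2 fold change 0.31, edgeR adjusted p = 0.0178), and Exo1, an exonuclease of DNA repair (log2 fold change -0.72, edgeR adjusted p = 0.0482). Of 24 other genes of RNA degradation, 3 rose and 2 fell, with a median of 0.03. Among those that rose were Rida (0.44, edgeR adjusted p = 0.00921) and the RNase H2 subunit gene Rnaseh2a (0.27, edgeR adjusted p = 0.0421). Dis3, an exosome RNase (-0.35, edgeR adjusted p = 0.0373), fell, as did Zc3h12c (-0.37, edgeR adjusted p = 0.0448). Leaving out KAT7KO replicate 1, 2 or 3, or Ctrl replicate 2, left 0 genes of DNA degradation called. Exo1 was not called without Ctrl replicate 1 (edgeR adjusted p = 0.189). Among genes of RNA degradation, leaving out KAT7KO replicate 3 left 0 called, replicate 1 left 1 higher and 0 lower, and replicate 2 left 2 higher and 0 lower. On the Ctrl side, 1 was lower without replicate 2 and 4 without replicate 3.

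The sensing side of the pathway was mixed. Of 19 genes of nucleic acid sensing in endosomes, 4 rose and 4 fell, beside 10.7% and 13.2% of all tested genes. The median log2 fold change was -0.07. The receptor genes Tlr9 (0.57, edgeR adjusted p = 0.00318), for DNA, and Tlr7 (0.24, edgeR adjusted p = 0.00448), for RNA, on whose ligands PLD3 and PLD4 act, rose. The RNA receptor genes Tlr13 (-0.21, edgeR adjusted p = 0.00509) and Tlr8 (-0.25, edgeR adjusted p = 0.0135) fell. Irf7, the transcription factor of type I interferon induction, had the largest fall of this list (-0.84, edgeR adjusted p = 7.24e-07). With 1 library left out at a time, the counts on this list lay between 2 and 6 higher and between 2 and 7 lower. Without KAT7KO replicate 1, 2 or 3, 2 were higher, and without Ctrl replicate 1 or 3, 6 were. Those lower numbered 7 without Ctrl replicate 1 and 2 without KAT7KO replicate 1.

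Of 14 genes of cytosolic DNA sensing, 2 rose and 3 fell, beside 10.7% and 13.2% of all tested genes. The median log2 fold change was -0.04. Smpdl3a (0.58, edgeR adjusted p = 4.02e-06) and Enpp1 (0.40, edgeR adjusted p = 0.000545), which encode enzymes that split the cyclic dinucleotide messenger of this pathway, rose. The DNA sensor gene Ifi204 (-0.46, edgeR adjusted p = 6.90e-05) and the kinase gene Ikbke (-0.20, edgeR adjusted p = 0.00947) fell. Only 1 gene was lower without Ctrl replicate 2, KAT7KO replicate 2 or KAT7KO replicate 3, and 2 were without KAT7KO replicate 1.

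Among 22 genes of nucleotide and nucleoside breakdown, 3 rose and 3 fell, beside 10.7% and 13.2% of all tested genes. The median log2 fold change was 0.05. The acid phosphatase gene Acp5 (0.67, edgeR adjusted p = 7.92e-07) and Smpdl3a rose, while Ada (-0.85, edgeR adjusted p = 0.00234) and Xdh (-0.29, edgeR adjusted p = 0.00241), of purine breakdown, fell. Without any 1 of the KAT7KO libraries, or without Ctrl replicate 2, 2 rose. Without KAT7KO replicate 1 or 3, 2 fell.

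Loss of enzymes such as those described here is known to raise interferon-stimulated genes, so their levels are given beside the members. Of 28 interferon-stimulated genes tested, 20 fell and 0 rose, beside 13.2% and 10.7% of all tested genes. The median log2 fold change of this list was -0.44. The 4 with the smallest p were Oasl2 (-1.0, edgeR adjusted p = 1.81e-07), Rtp4 (-0.93, edgeR adjusted p = 4.39e-06), Oas3 (-0.81, edgeR adjusted p = 7.10e-06) and Irf7. Larger falls were seen at low levels for Mx1 (-1.57, edgeR adjusted p = 0.000665) and Mx2 (-1.31, edgeR adjusted p = 0.0175). With 1 library left out, 15 to 23 fell. Of 12 genes of inherited interferonopathies other than the members, 4 fell (Stat2, -0.54; Adar, -0.38; Ifih1, -0.35; Isg15, -0.35) and Rnaseh2a rose (median -0.07). Their edgeR adjusted p-values were 0.000962, 0.00236, 0.0128 and 0.0301 for those that fell. The list does not hold every such gene. Acp5, counted above under nucleotide breakdown, is left off it, and rose (0.67, edgeR adjusted p = 7.92e-07). The Isg15 call was lost without Ctrl replicate 2 or 3 (edgeR adjusted p = 0.112 and 0.0606), without KAT7KO replicate 1, 2 or 3 (edgeR adjusted p = 0.120, 0.0800 and 0.0602) and with DESeq2 (adjusted p = 0.0754). Ifih1 lost its call without KAT7KO replicate 2 or 3 (edgeR adjusted p = 0.0591 and 0.0722). Without KAT7KO replicate 2 or 3, 2 genes of this list fell, and Rnaseh2a was not called without Ctrl replicate 1 (edgeR adjusted p = 0.0663) or KAT7KO replicate 1, 2 or 3 (edgeR adjusted p = 0.0667, 0.161 and 0.137). Stat2, Isg15 and Usp18, which was not called (-0.03, edgeR adjusted p = 0.851), are on the interferon-stimulated list as well. The results of these lists are therefore not separate.

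**Figure D5:**
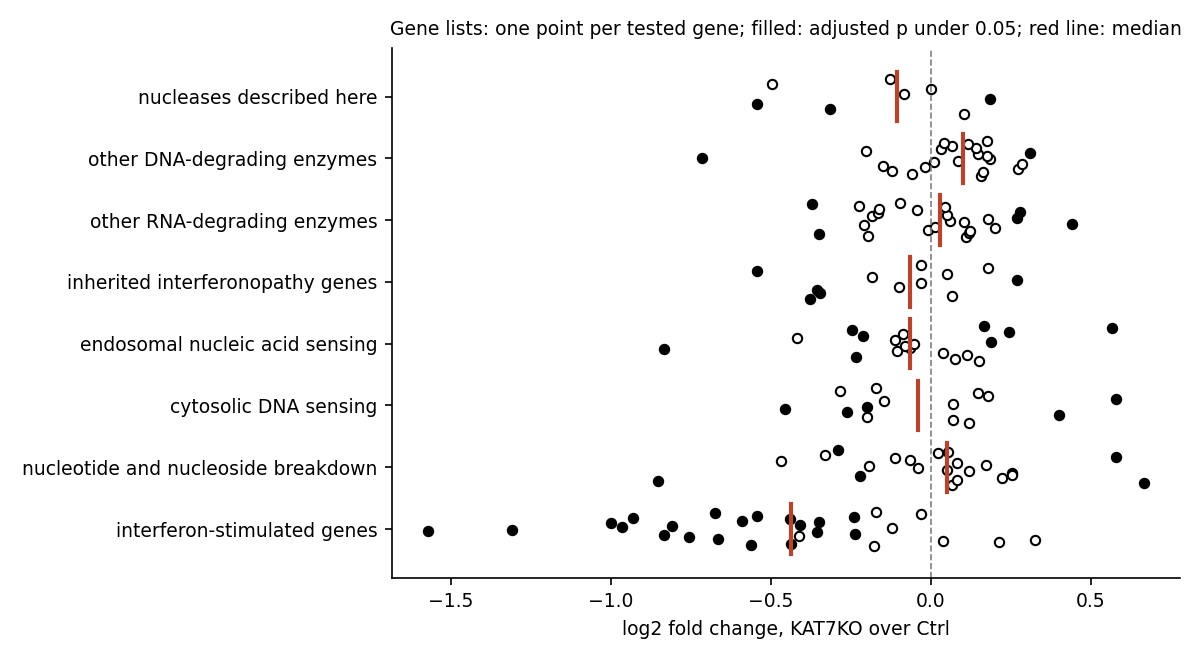
Log2 fold change, KAT7KO over Ctrl, of each tested gene on the nuclease list and 7 related lists; filled points have an edgeR adjusted p under 0.05 and the red line is the median. The nucleases centre at -0.11, and the interferon-stimulated genes at -0.44 with 20 of 28 filled points, all left of 0.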

How the data were processed

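Bulk RNA was measured in 3 KAT7KO and 3 Ctrl libraries of mouse bone marrow-derived macrophages, grouped by their titles. The deposited table holds whole-number counts per gene, which the authors deposited without normalization, and FPKM values, which per the file headers are per library. The table also holds a log2 fold change, a p-value and its adjusted form that the authors computed. The submitters' processing notes name FastQC, fastp, HISAT2, featureCounts, DESeq2 and, as the build, GRCm39. Strand settings and the counting of multiply matching reads are not given there.

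Of 18039 genes, 12483 passed filterByExpr by genotype. After TMM scaling the test was edgeR's (4.0.16, under R 4.3.3; robust glmQLFit, glmQLFTest), KAT7KO against Ctrl, without a block, adjusted by Benjamini-Hochberg over all genes tested at 0.05. The SE is the size of the log2 fold change divided by the square root of F. Intervals are at 95%. Fits were tested on simulated counts. Alternatives were other scaling factors, other filters on low counts, DESeq2 1.42.0, limma-voom (limma 3.58.1), glmTreat over 1.2-fold, a replicate block, each library left out, and the Rnaset2 copies summed.

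The members and lists were chosen with earlier results of these data known. Genes named were the members, Kat7, up to 4 called genes of each related list in order of p (filled to 2 by level), and the 3 genes nearest to the member of smallest p. Of these, 1 gene is not reported here. Zc3h12c, Tlr8, Mx1, Mx2 and the markers named were chosen after their values were seen. Promoters come from RefSeq (GRCm38.p6) and coding sequences from GENCODE M21.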

Additional observations from a re-analysis of the deposited data

How the results depend on the processing

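Asking for a change over 1.2-fold left 840 genes (199 higher, 641 lower) and 1 member nuclease (0 higher, 1 lower: Endod1). With 1 library left out at a time, 1734 to 3528 genes were called (663 to 1708 higher, 1071 to 1820 lower), and 2 to 4 member nucleases (0 to 2 higher, 2 lower in each). The members called lower were Dnase2a and Endod1 each time. The number of all genes called was 2014 without Ctrl replicate 2, and 1854, 1734 and 1811 without KAT7KO replicates 1, 2 and 3. Samhd1 joined the members called lower with the filter of 5 CPM. Rnaset2a, not called in any setting, changed sign to a log2 fold change of -0.016 with upper-quartile factors, to -0.21 summed with Rnaset2b, and ranged between -0.066 and 0.113 with 1 library left out. With DESeq2, 2436 genes were called. Of 390 values for the 28 genes that the naming rule gave beside the members, 335 kept their call and 55 kept their direction but lost it.

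Same-numbered libraries correlated by 0.0145, 0.0016 and 0.0031 in their deviations from the group means, so no shared deviation was seen. These values cannot show whether same-numbered libraries were paired by animal or handling. With the replicate block 2812 genes were called (1290 higher, 1522 lower), and Dnase2a (edgeR adjusted p = 0.00126), Endod1 (edgeR adjusted p = 0.00118) and Pld3 (edgeR adjusted p = 0.0282) kept their calls. Counts of Rnaset2a, Rnaset2b and Dnase1l3 were 41 or fewer in every library, which limits their precision. For the Rnaset2 copies, whether shared reads were left uncounted is not known, and the part of such reads in this was not tested. RNA levels do not measure nuclease protein or activity.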
